A study of Mus musculus with 7 samples.

Results

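Disease-associated microglia genes are those that microglia, the resident macrophages of the brain, raise around amyloid plaques. The 35 genes examined here were listed by name, and 30 of them had a probe set with that name in the array's probe annotation, out of 19505 named genes. Ctsd, Cd68, Clec7a, Spp1 and Ank had none and were not analysed here. All 30 passed the filter on dim genes, which kept 10004 genes that exceeded the median of all named genes on 3 or more of the 7 arrays. Of the 30, 27 lay above that level in every array. Cd44 and Cd52 passed through 4 knockout arrays and 1 wildtype array, so the filter favoured a higher knockout value for them, and Dkk2 passed through 3 wildtype and 2 knockout arrays.

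RNA came from brain cells that excluded a viability dye and carried CD45 and CD11b on their surface, sorted from mice of the C57BL/6 strain. Every mouse carried 5xFAD, a set of human transgenes with familial Alzheimer mutations that neurons express and that lead to amyloid plaques. No group without these transgenes was measured, and the arrays do not measure amyloid. The groups were 5xFAD;B2m+/+ with 3 arrays and 5xFAD;B2m-/- with 4 arrays, called wildtype and knockout below. B2m encodes the light chain of MHC class I, and a germline knockout removes it from all cells of the animal, so few CD8+ T cells develop. The labels gave no age, sex or treatment, and they did not say whether each array was a different animal, so the tests weigh differences only against the spread among these arrays. B2m itself (log2 expression) read 13.39 to 13.42 with B2m intact against 10.24 to 10.56 without it. Signal thus remained in the knockout arrays, above 95% of the negative control probe sets in all 7 arrays, and its source was not tested.

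As background, the disease-associated state is entered in steps. Microglia near plaques first lower their homeostatic genes and raise lysosomal genes, and then, through the lipid receptor TREM2, raise genes of phagocytosis, lipid uptake and growth factor signalling. Its genes encode lysosomal proteases, an inhibitor of those proteases, tetraspanins, integrins and secreted factors that act on neighbouring cells. The labelled cell type was checked against its markers. All 9 named genes of a 10-gene microglia list, P2ry12, Tmem119, Cx3cr1, Siglech, Fcrls, Sall1, Olfml3, Gpr34 and Csf1r, were brighter than 95% of the negative control probe sets, called the background level below, in all 7 arrays. The 10 named T and natural killer cell markers, the 5 named B cell markers and the 8 astrocyte markers lay below that level in all 7 arrays.

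No disease-associated gene passed the threshold between the genotypes. Differences are given as knockout minus wildtype on the log2 scale. In limma, 0 of the 30 had an adjusted p under 0.05, where 5 of all 10004 tested genes, 0.05%, did. The smallest adjusted p was 0.327, for Ccl6. Differences ran from -0.18 for Dkk2 to 0.58 for Ch25h, with standard errors from 0.091 to 0.32. They lay above 0 in 23 genes (22 after repeated quantile normalization and 24 with arrays centred on their medians) and below 0 in 7, where 48.6% of all tested genes lay above 0. Their median was 0.13, and the median over all tested genes was -0.0055. At an unadjusted p under 0.05, 7 of the 30 were higher in knockout arrays (23.3%, against 8.39% of all tested genes) and 0 were lower (against 3.54%). The knockout arrays lay wholly above the wildtype arrays for 5 genes (16.7%, against 7.10% of all tested genes), and the opposite held for 0 (against 3.80%). Cd44 and Cd52, which the filter favoured, are among the 7, and Cd44 is among the 5. A stricter filter on dim genes left out both and Dkk2. The counts were then 5 (18.5%) and 4 (14.8%) of 27, and the shares over all genes under that filter were not analysed here. The genes were listed with results of these data known, so these shares describe them and support no statement about the list.

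**Figure D1:**
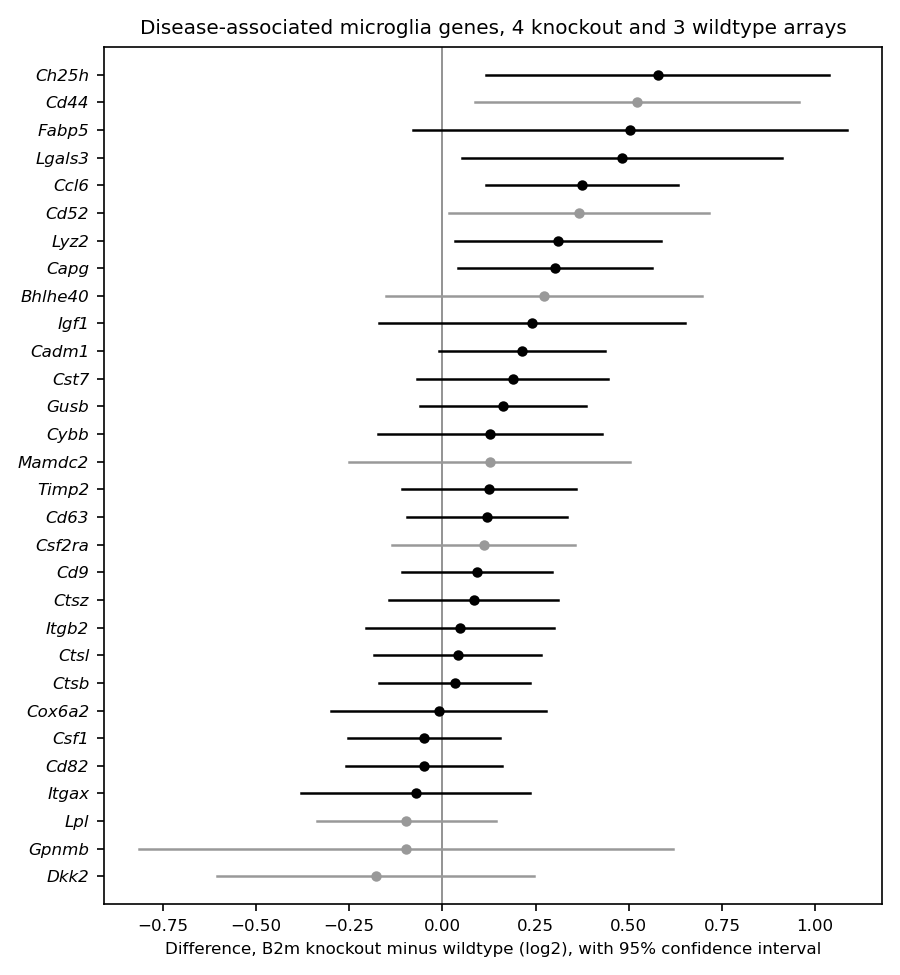
Difference between the genotypes for each of the 30 genes (x axis, log2, knockout minus wildtype), ordered by size on the y axis, with points for the estimate and lines for the 95% confidence interval from limma. Grey marks genes that fell below the level of 95% of the negative control probe sets in at least 1 array, and the interval reached 0 in 23 of the 30.

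The intervals bound how large a difference these arrays leave room for. The 95% confidence interval lay within 1.5-fold either way for 19 of the 30 genes, and the widest belonged to Gpnmb, from -0.81 to 0.62. The log2 difference itself, rather than expression, was compared between fits that left out 1 array at a time. It changed by a factor over 1.5, or turned its sign, in at least 1 of 7 fits for 23 of the 30. It did neither in any fit for Cadm1, Ccl6, Cd63, Cd9, Ch25h, Gusb and Lgals3. In 24 of the 30 the range over the 3 wildtype arrays was larger than the difference between the genotypes.

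The arrays of 1 genotype did not move together. The median deviation of the 30 genes from the mean of both genotype means was -0.11, -0.11 and 0.095 in wildtype replicates 1, 2 and 3. It was 0.13, 0.098, 0.093 and -0.035 in knockout replicates 1 to 4. Wildtype replicate 3 thus lay among knockout replicates 1 to 3, and knockout replicate 4 lay below them. Wildtype replicate 3 was the highest wildtype array for 25 of the 30 genes, against 34.2% of all tested genes, and knockout replicate 4 was the lowest knockout array for 16, against 29.0%. Over all tested genes the same medians stayed between -0.0072 and 0.040.

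**Figure D2:**
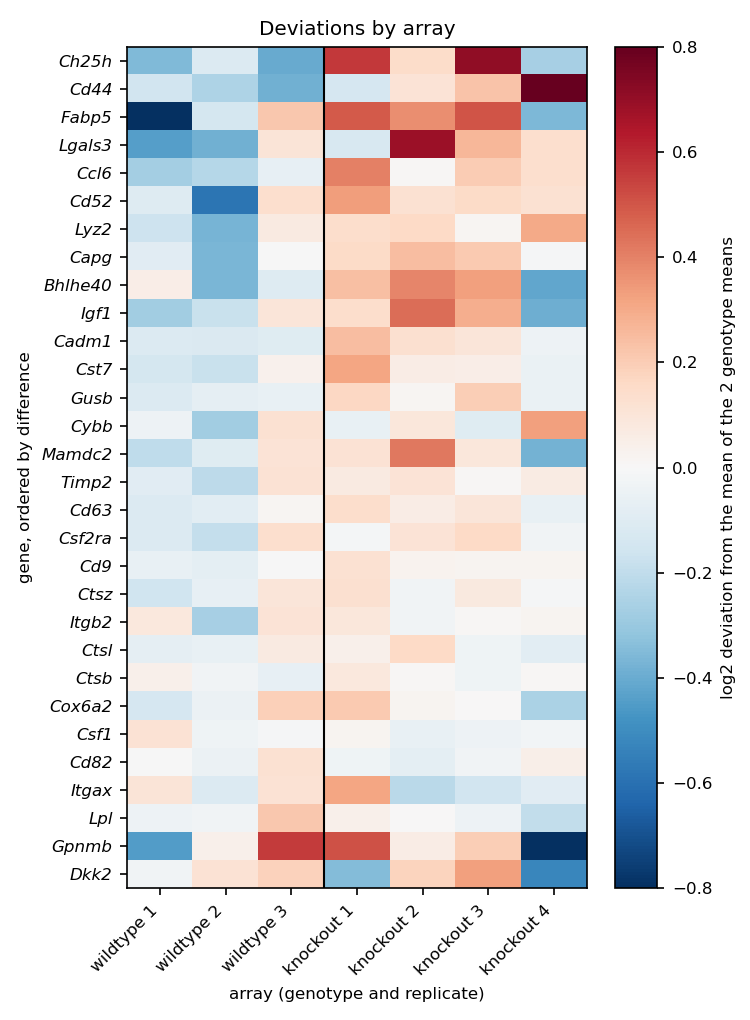
Heat map of the log2 deviation of each gene (y axis, ordered by the difference between genotypes) in each array (x axis, 3 wildtype and 4 knockout) from the mean of the 2 genotype means, with red above and blue below. Wildtype replicate 3 was the highest wildtype array in 25 of the 30 genes, and Gpnmb and Dkk2 were lowest in knockout replicate 4.

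Markers of other cells differed between the same arrays. Of 14 endothelial and mural markers 13 were named, with 6 above the background level in all arrays and Slco1a4, Pltp, Pdgfrb, Rgs5 and Kcnj8 below it in all. Their summed level (log2 of the sum of linear values) ran from 13.54 to 14.32 in wildtype and from 13.65 to 13.80 in knockout arrays, and their median deviation was 0.43 and 0.42 in wildtype replicates 1 and 2 and -0.22 in wildtype replicate 3. The 10 neutrophil markers, 5 of them above that level in all arrays, summed to 14.16 to 14.63 over the wildtype and 14.10 to 15.38 over the knockout arrays, with a median deviation of 1.31 in knockout replicate 4. The 9 named monocyte markers summed to 11.75 to 12.45 and 12.04 to 13.13, with 1 above the level in all arrays and Ccr2, Vcan, F10, Treml4 and Ace below it in all. The 10 border-associated macrophage markers summed to 12.50 to 12.77 over the wildtype and 12.41 to 12.60 over the knockout arrays, with Cd163, Lyve1, F13a1, Clec10a and Folr2 below it in all. As background, neutrophils and monocytes carry both CD45 and CD11b and pass the sort, whereas endothelial and mural cells carry neither and the sort should remove them. The part of these cells in the differences below was not tested, and in RNA from pooled cells fewer cells of a type and less RNA per cell cannot be told apart. Wildtype replicates 1 and 2, the arrays high in endothelial markers, were also low in the 30 genes. 1 or the other was the lowest wildtype array for 27 of the 30. Leaving both out thus lowers the median difference whatever cells are present, though not every difference (Ch25h rose from 0.58 to 0.69). That fit therefore does not test the part of endothelial cells. It left 1 wildtype array. The differences then lay above 0 in 16 genes and below 0 in 14, with a median of 0.030, and 0 were higher at an unadjusted p under 0.05 (against 2.17% of all tested genes). The knockout arrays all lay above that array for 7 genes (23.3%, against 19.7%) and all below it for 5 (16.7%, against 16.9%). Knockout replicate 4, the array high in neutrophil markers, was also the lowest knockout array for 16 of the 30. Leaving it out thus raises the differences for those genes whatever cells are present, and does not test the part of neutrophils. Without it the median was 0.18, and 10 were higher at an unadjusted p under 0.05 (33.3%, against 8.48%). The knockout arrays then lay wholly above the wildtype arrays for 12 (40%, against 11.2%). Without wildtype replicate 3 that last count was 14 (46.7%, against 14.7%), and without wildtype replicate 1 and knockout replicate 4 it was 12 (40%, against 15.0%). When the trend of each array with gene span was removed it was 2 (6.67%, against 6.63%). After repeated quantile normalization the knockout arrays lay wholly below the wildtype arrays for 1 of the 30 genes, against 4.80% of all tested genes. The count of 7 at an unadjusted p under 0.05 was 3 without wildtype replicate 1 (10%, against 4.74%). It was 2 without wildtype replicate 2 (6.67%, against 5.71%) and 4 without knockout replicate 1 (13.3%, against 6.95%). It was 4 without knockout replicate 2 (13.3%, against 7.12%) and 3 without knockout replicate 3 (10%, against 6.29%).

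**Figure D3:**
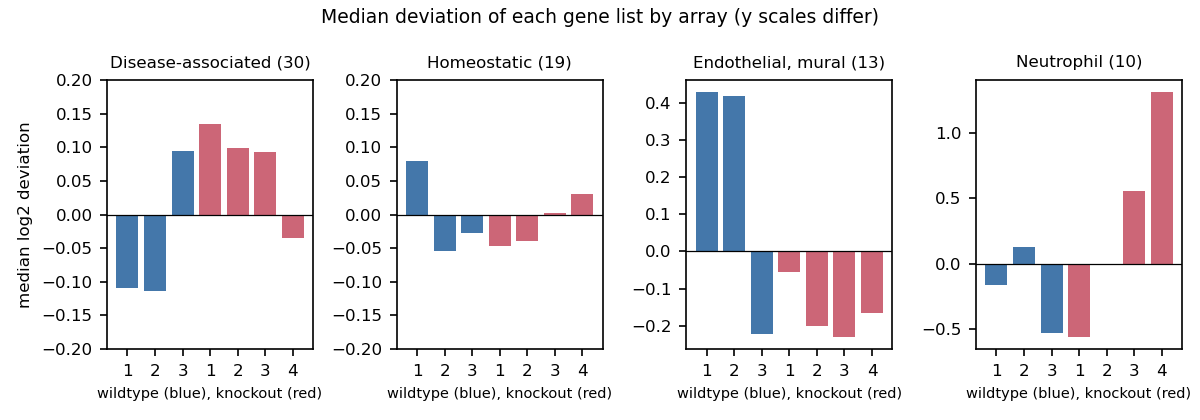
Median log2 deviation (y axis, scales differ between panels) of 4 gene lists in each array (x axis, replicate numbers, wildtype in blue and knockout in red). The disease-associated genes were low in wildtype replicates 1 and 2 (-0.11 each), where endothelial and mural markers were high (0.43 and 0.42), and neutrophil markers stood highest in knockout replicate 4 (1.31).

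Promoter sequences are shown for the gene with the smallest p, Ccl6, the gene with the largest difference, Ch25h, and the usual defining genes of the state with an entry, Cst7, Itgax, Gpnmb and Cd9, so that genes with larger and smaller differences can be read side by side. Each is the RefSeq window of GRCm38.p6 from 250 bases before to 50 bases after the gene start, written 5′ to 3′ on the gene's strand. Short motifs were searched on both strands. CACGTG is the E-box read by TFEB and related factors of lysosomal genes and by BHLHE40. TGANTCA is a loose form of the AP-1 site with its middle base left free. GAGGAA is a core of sites for the myeloid factor PU.1. Capitals mark TGANTCA, and neither of the other motifs was found in these 6 windows.
Ccl6, chr11:83593038-83593337, minus strand: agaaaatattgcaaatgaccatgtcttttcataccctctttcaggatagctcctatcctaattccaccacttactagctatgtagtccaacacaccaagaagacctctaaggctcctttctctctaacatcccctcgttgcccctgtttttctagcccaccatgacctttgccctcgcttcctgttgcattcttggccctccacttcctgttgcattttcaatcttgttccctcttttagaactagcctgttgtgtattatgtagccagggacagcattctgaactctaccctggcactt
Ch25h, chr19:34475099-34475398, minus strand: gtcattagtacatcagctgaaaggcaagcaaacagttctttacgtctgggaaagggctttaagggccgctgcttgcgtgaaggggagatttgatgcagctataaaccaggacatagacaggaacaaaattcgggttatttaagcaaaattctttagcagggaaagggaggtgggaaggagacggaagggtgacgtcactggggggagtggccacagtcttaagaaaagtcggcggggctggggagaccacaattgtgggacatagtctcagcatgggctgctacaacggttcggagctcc
Cst7, chr2:150570165-150570464, plus strand: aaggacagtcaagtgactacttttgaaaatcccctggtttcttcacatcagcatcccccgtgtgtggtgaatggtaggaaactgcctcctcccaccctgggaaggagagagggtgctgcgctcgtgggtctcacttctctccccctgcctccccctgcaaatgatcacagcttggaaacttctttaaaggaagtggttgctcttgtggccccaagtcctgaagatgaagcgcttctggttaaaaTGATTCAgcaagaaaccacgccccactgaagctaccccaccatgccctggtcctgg
Itgax, chr7:128129300-128129599, plus strand: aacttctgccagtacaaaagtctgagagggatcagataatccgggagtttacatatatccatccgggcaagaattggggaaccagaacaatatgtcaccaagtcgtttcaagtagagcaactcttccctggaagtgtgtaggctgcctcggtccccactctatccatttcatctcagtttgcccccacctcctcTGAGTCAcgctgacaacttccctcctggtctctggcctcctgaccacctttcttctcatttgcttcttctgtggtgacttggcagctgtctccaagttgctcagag
Gpnmb, chr6:49036268-49036567, plus strand: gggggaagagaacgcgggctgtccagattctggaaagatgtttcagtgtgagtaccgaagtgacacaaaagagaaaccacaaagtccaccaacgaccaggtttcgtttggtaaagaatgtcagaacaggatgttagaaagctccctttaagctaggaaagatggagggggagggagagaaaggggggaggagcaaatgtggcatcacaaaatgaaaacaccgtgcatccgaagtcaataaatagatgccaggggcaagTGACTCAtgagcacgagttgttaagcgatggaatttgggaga
Cd9, chr6:125494711-125495010, minus strand: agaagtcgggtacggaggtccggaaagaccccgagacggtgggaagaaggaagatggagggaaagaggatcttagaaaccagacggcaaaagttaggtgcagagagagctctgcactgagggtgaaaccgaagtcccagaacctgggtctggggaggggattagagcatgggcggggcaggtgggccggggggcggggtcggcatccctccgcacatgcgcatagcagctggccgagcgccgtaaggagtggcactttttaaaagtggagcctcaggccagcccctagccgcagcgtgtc
TGANTCA began 6 bases before the gene start in Cst7, 56 bases before it in Itgax, and at base 9 after it in Gpnmb, counting the start as base 1. Of the 30 measured genes 21 had windows, 24 in all. TGANTCA was found in 5 of the 24 (20.8%), those of Cst7, Itgax, Gpnmb, Igf1 and Cybb. It was in 7.81% of all 32851 windows and in 5.34% of the 10354 windows of tested genes. The 5 genes with the motif differed by 0.19, -0.071, -0.097, 0.24 and 0.13 between the genotypes. GAGGAA was in 8 windows (33.3%, against 28.3% of all windows and 27.3% of those of tested genes). CACGTG was in 1, that of Ctsl (4.17%, against 7.15% and 9.96%). A match is a run of letters and was not tested as a site. Lpl, Fabp5, Cd52, Cadm1, Itgb2, Ctsb, Bhlhe40, Mamdc2 and Cox6a2 had no entry.

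Among the secreted proteins, 8 genes were listed and 7 measured. Their differences had a median of 0.13, 5 lay above 0 (against 48.6% of all tested genes), and 2 of these had an unadjusted p under 0.05 (against 8.39%). Ccl6, a chemokine of myeloid cells, read 11.42, 11.46 and 11.63 on the wildtype arrays against 12.09, 11.70, 11.89 and 11.83 on the knockout arrays. All knockout arrays lay above all wildtype arrays, with a gap of 0.073 between the nearest. The difference was 0.37 (SE 0.12, limma adjusted p = 0.327), 1.30-fold with a 95% confidence interval of 1.08 to 1.55. It had an unadjusted p under 0.05 in 17 of 18 alternatives, with a lowest limma adjusted p of 0.189. The alternatives reuse the same arrays, so they are not independent support. The difference was 0.25 without wildtype replicates 1 and 2. Lgals3, or galectin-3, a lectin that binds glycans on damaged membranes, read 10.10, 10.16 and 10.65 on the wildtype arrays against 10.42, 11.23, 10.81 and 10.68 on the knockout arrays. Wildtype replicate 3 lay above knockout replicate 1, so the groups overlapped. The difference was 0.48 (SE 0.19, limma adjusted p = 0.386), and it was 0.13 without wildtype replicates 1 and 2 and 0.65 without wildtype replicate 3.

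The other secreted factors were closer to 0. Igf1, the insulin-like growth factor, differed by 0.24 (SE 0.18) and ran from 11.13 to 11.50 in wildtype and from 11.02 to 11.85 in knockout arrays. Its lowest value was in knockout replicate 4, and the difference was 0.41 without that array, 0.13 without knockout replicate 2 and 0.026 without wildtype replicates 1 and 2. Timp2, an inhibitor of metalloproteinases, differed by 0.13 (SE 0.10). Csf1, the growth factor that keeps microglia alive, differed by -0.049 (SE 0.092), with a 95% confidence interval of -0.25 to 0.16. Mamdc2 differed by 0.13 (SE 0.17), and Dkk2, a Wnt modulator, by -0.18 (SE 0.19). Dkk2 lay below the background level in every array and Mamdc2 in all but 1, so their differences are near the array's background. The difference of Mamdc2 was 0.0074 without knockout replicate 2 and 0.27 without knockout replicate 4, and that of Dkk2 was -0.036 without knockout replicate 4 and -0.32 without knockout replicate 3. The limma adjusted p of these 5 genes lay between 0.636 and 0.870.

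All 3 genes of lipid and sterol handling were measured, and their differences went both ways. Ch25h, which makes 25-hydroxycholesterol, read 9.70, 9.95 and 9.65 on the wildtype arrays against 10.62, 10.20, 10.77 and 9.79 on the knockout arrays. Knockout replicates 1 to 3 lay above every wildtype array, and knockout replicate 4 lay among them. The difference was 0.58 (SE 0.21, limma adjusted p = 0.349), 1.49-fold with a 95% confidence interval of 1.08 to 2.05. It was 0.76 without knockout replicate 4 and 0.69 without wildtype replicates 1 and 2. Fabp5, which carries fatty acids in the cytosol, read 9.57, 10.26 and 10.62 on the wildtype arrays against 10.89, 10.77, 10.90 and 10.04 on the knockout arrays. Values spread by 1.05 within the wildtype arrays, more than the difference of 0.50 (SE 0.26, limma adjusted p = 0.485). That difference was 0.034 without wildtype replicates 1 and 2, 0.21 without wildtype replicate 1 and 0.71 without knockout replicate 4. Lpl, the lipoprotein lipase, read 9.49, 9.50 and 9.74 on the wildtype arrays against 9.57, 9.53, 9.49 and 9.33 on the knockout arrays. The groups overlapped, and the difference was -0.097 (SE 0.11, limma adjusted p = 0.761) with a 95% confidence interval of -0.34 to 0.14. The difference was -0.014 without wildtype replicate 3, and Lpl lay below the background level in 2 of 7 arrays.

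Lysosomal and antimicrobial genes had 7 of 9 members measured. All 7 differences lay above 0 (Ctsl turned to -0.0032 after repeated quantile normalization), with a median of 0.12 and a range of 0.034 to 0.31, and 1 of the 7 had an unadjusted p under 0.05, where 8.39% of all tested genes were higher at that p. Cst7, or cystatin F, an inhibitor of cysteine cathepsins, read 12.27, 12.23 and 12.44 on the wildtype arrays against 12.72, 12.46, 12.46 and 12.35 on the knockout arrays. Among the knockout arrays only replicate 4 lay below wildtype replicate 3. The difference was 0.19 (SE 0.12, limma adjusted p = 0.542), with a 95% confidence interval of -0.067 to 0.44, and it was 0.061 without wildtype replicates 1 and 2. The cysteine cathepsins Ctsb, Ctsl and Ctsz, which degrade proteins in the lysosome, differed by 0.034 (SE 0.091), 0.041 (SE 0.10) and 0.084 (SE 0.10). Their 95% confidence intervals lay between -0.18 and 0.31. Each overlapped between the genotypes, with Ctsb at 13.20 to 13.30 over the wildtype and 13.23 to 13.34 over the knockout arrays.

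Gusb, or beta-glucuronidase, which removes glucuronic acid from glycosaminoglycans, read 12.09, 12.14 and 12.14 on the wildtype arrays against 12.37, 12.22, 12.40 and 12.16 on the knockout arrays. The groups did not overlap, by a gap of 0.012. The difference was 0.16 (SE 0.10, limma adjusted p = 0.545). Lyz2, the macrophage lysozyme, read 11.54, 11.33 and 11.77 on the wildtype arrays against 11.84, 11.86, 11.72 and 12.01 on the knockout arrays. The groups overlapped, and the highest value was in knockout replicate 4, the array highest in neutrophil markers. The difference was 0.31 (SE 0.12, limma adjusted p = 0.386), 0.26 without knockout replicate 4 and 0.086 without wildtype replicates 1 and 2. Lyz2 has a close paralog in Lyz1, and whether the probes tell them apart was not analysed here. Cd63, a tetraspanin of late endosomes, differed by 0.12 (SE 0.097).

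Of 10 receptors and adhesion proteins 9 were measured. Their median difference was 0.094, 6 lay above 0, and 2 of these had an unadjusted p under 0.05 (against 8.39% of all tested genes). Both of those 2, Cd44 and Cd52, lay below the background level in all 7 arrays and passed the filter on dim genes mainly through knockout arrays. Cd44, the hyaluronan receptor, read 8.0, 7.91 and 7.77 on the wildtype arrays against 8.02, 8.27, 8.38 and 9.0 on the knockout arrays. The groups did not overlap, by a gap of 0.018, and knockout replicate 4 stood highest. The difference was 0.52 (SE 0.20, limma adjusted p = 0.367), and without that array it was 0.33. By the gene order of GRCm38.p6, Cd44 lies on chromosome 2 with B2m, 85 tested genes away, as do Cd82 at 98, Cst7 at 102 and Ctsz at 276 tested genes. Cd52, a small glycoprotein anchored in the leukocyte membrane, read 7.93, 7.44 and 8.17 on the wildtype arrays against 8.37, 8.15, 8.18 and 8.15 on the knockout arrays. Wildtype replicate 3 lay above 2 knockout arrays, and wildtype replicate 2 was low. The difference was 0.37 (SE 0.16, limma adjusted p = 0.403), 0.17 without wildtype replicate 2 and 0.047 without wildtype replicates 1 and 2.

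Cadm1, an adhesion molecule of the immunoglobulin family, read 10.83, 10.83 and 10.85 on the wildtype arrays against 11.19, 11.07, 11.04 and 10.90 on the knockout arrays. The groups did not overlap, by a gap of 0.052, and the difference was 0.21 (SE 0.10, limma adjusted p = 0.438), 1.16-fold with a 95% confidence interval of 0.994 to 1.35. Cd9, a tetraspanin that organizes surface receptors, read 13.06, 13.04 and 13.12 on the wildtype arrays against 13.24, 13.15, 13.14 and 13.14 on the knockout arrays. The groups did not overlap, by a gap of 0.022, and the difference was 0.094 (SE 0.091, limma adjusted p = 0.713). Thus non-overlap went with differences as small as 1.07-fold, and the widest gap among the 5 genes was the 0.073 of Ccl6.

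Itgax, or CD11c, an integrin that marks plaque-associated microglia, read 10.50, 10.29 and 10.51 on the wildtype arrays against 10.72, 10.19, 10.25 and 10.31 on the knockout arrays. The groups overlapped, with the highest and the lowest values both in knockout arrays. The difference was -0.071 (SE 0.14, limma adjusted p = 0.875), with a 95% confidence interval of -0.38 to 0.24. It was -0.19 without knockout replicate 1 and -0.011 without knockout replicate 2. Its partner chain Itgb2 differed by 0.048 (SE 0.11). Gpnmb, a membrane glycoprotein induced by lysosomal stress, read 9.53, 10.02 and 10.53 on the wildtype arrays against 10.49, 10.04, 10.17 and 9.02 on the knockout arrays. It varied by 1.01 within wildtype and by 1.47 within knockout arrays, and the groups overlapped. The difference was -0.097 (SE 0.32, limma adjusted p = 0.932). The gene lay below the background level in 1 array, knockout replicate 4. The sign of its difference turned without knockout replicate 4 (0.21) or wildtype replicate 3 (0.16) and with array weights (0.039), and the difference was -0.60 without wildtype replicates 1 and 2. Csf2ra, a chain of the GM-CSF receptor, differed by 0.11 (SE 0.11), and the tetraspanin Cd82 by -0.050 (SE 0.094).

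**Figure D4:**
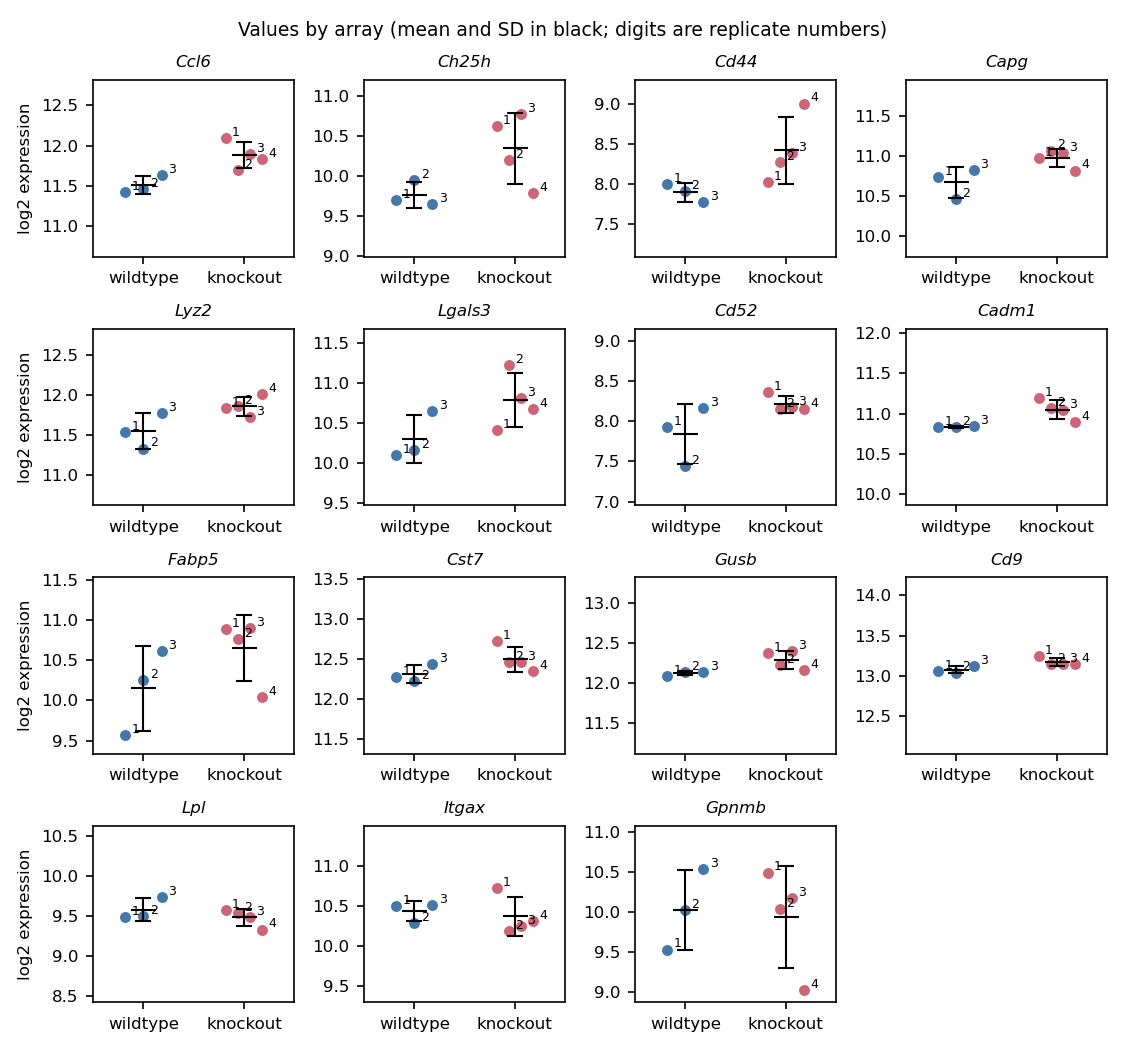
Log2 expression (y axis, a span of 2.2 in each panel) in the 3 wildtype and 4 knockout arrays (x axis) of the 15 genes described by array, with black bars for the mean and SD and digits for the replicate number. Knockout replicate 4 is the lowest knockout array for Ch25h, Fabp5 and Gpnmb and the highest for Cd44 and Lyz2.

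Other intracellular and membrane proteins had 4 of 5 members measured, with a median difference of 0.20, 3 above 0 and 1 of these at an unadjusted p under 0.05 (against 8.39% of all tested genes). Capg, which caps actin filaments, read 10.74, 10.46 and 10.83 on the wildtype arrays against 10.98, 11.07, 11.04 and 10.82 on the knockout arrays. Knockout replicate 4 lay just below wildtype replicate 3, and the other knockout arrays lay above all wildtype arrays. The difference was 0.30 (SE 0.12, limma adjusted p = 0.380), 1.23-fold with a 95% confidence interval of 1.03 to 1.48, and it was 0.15 without wildtype replicates 1 and 2. Bhlhe40, a transcriptional repressor, ran from 9.32 to 9.74 in wildtype and from 9.27 to 10.08 in knockout arrays and differed by 0.27 (SE 0.19). Its lowest value was in knockout replicate 4. The difference was 0.46 without that array and 0.16 without wildtype replicate 2, and the gene lay above the background level in 5 of 7 arrays. Cybb, the catalytic subunit of the phagocyte NADPH oxidase, differed by 0.13 (SE 0.14) and was highest in knockout replicate 4 at 11.86. Cox6a2, a subunit of cytochrome c oxidase, differed by -0.0096 (SE 0.13), and by 0.025 with arrays centred on their medians.

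Other genes of the same state, from a list of 20 of which 18 were tested, showed 13 differences above 0 and 5 below, with a median of 0.067. An unadjusted p under 0.05 was reached by 2 of them (11.1%, against 8.39% of all tested genes), both higher, and 0 passed the adjusted threshold. Rxrg, a nuclear receptor for retinoids, differed by 0.46 (SE 0.14, limma adjusted p = 0.320) and lay below the background level in all arrays. Lilrb4a, an inhibitory receptor, differed by 0.37 (SE 0.11, limma adjusted p = 0.320), the receptor kinase Axl by 0.24 (SE 0.11) and the sialomucin Cd34 by 0.21 (SE 0.10). Trem2 and Apoe, named after their values were seen because they define the state, differed by 0.21 (SE 0.11, limma adjusted p = 0.464) and -0.16 (SE 0.19, limma adjusted p = 0.777). Apoe read 13.03 in wildtype replicate 3 and 12.36 and 12.38 in the other wildtype arrays. Homeostatic genes, which fall as the state is entered, had a median difference of -0.0076 over 19 tested genes of 20. Of these, 6 lay above 0 (31.6%, against 48.6% of all tested genes) and 13 below. At an unadjusted p under 0.05, 0 were higher (against 8.39%) and 0 lower (against 3.54%). The 4 with the smallest p were Gpr34 at 0.16 (SE 0.11), Fcrls at -0.13 (SE 0.11), Olfml3 at 0.10 (SE 0.10) and Ltc4s at 0.096 (SE 0.10).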

How the data were processed

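RNA from the sorted cells, labelled as microglia, was measured in 7 samples with 1 expression array each. The table deposited by the authors gives log2 expression for each probe set. According to the submitters' processing notes, RMA (background correction, normalization between arrays, probe summary) was run in Affymetrix Expression Console 1.1. The array's genome build was not given in the sources used here, and no probe coordinate is printed. The table held 28846 rows with array medians from 7.68 to 7.75, and no further normalization was applied. No 2 arrays held identical values.

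Probe sets were named from the platform annotation (19572 with 1 symbol, 0 with several, 9274 with none listed) and updated by Entrez identifier. For genes with several probe sets, 55 in all, the one with the highest mean was kept. Groups follow the genotype label, and replicate numbers follow deposit order and pair nothing. In R 4.3.3, limma 3.58.1 (lmFit, then eBayes) was fitted over 10004 genes, with Benjamini-Hochberg adjustment over all of them, and was tested on simulated data. The 5222 rows with neg tags served as a rough guide to background, whose level is their 95th percentile on each array. For arrays, their number limits the precision.

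The genes and lists were chosen with earlier results of these data known. Every listed gene is named. Values by array are given for genes at an unadjusted p under 0.05, without overlap, or with a difference of at least 0.4, and for Cst7, Lpl, Itgax, Gpnmb and Cd9 (Clec7a and Spp1 were not measured). Up to 4 genes each of the related and homeostatic lists are named, by smallest p. Alternatives changed the filter, the prior, array weights, normalization, probe sets, a gene span trend and the arrays included. Dendritic, oligodendrocyte and neuron marker lists were also read, with 0, 0 and 1 genes above the background level in all arrays.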

Additional observations from a re-analysis of the deposited data

Results flagged for a closer look

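In the 4 knockout arrays, 3 of 30 genes had 1 array far from the other 3 by Dixon's ratio. Such a ratio arises by chance in about 5% of groups of this size. Fabp5 read 10.04 in knockout replicate 4 against 10.77 to 10.90 in the others. Cd52 read 8.37 in knockout replicate 1 against 8.15 to 8.18. Cd9 read 13.24 in knockout replicate 1 against 13.14 to 13.15.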

How the results depend on the processing

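Over 18 alternatives 0 of the 30 genes passed an adjusted p under 0.05 in limma in any of them, with 7 at an unadjusted p under 0.05 as reported, and 21 kept the sign of their difference in every alternative run for them. No paired analysis was possible because the labels carry no replicate numbers. Leaving out 1 array at a time moved the median difference between 0.093 and 0.21. The count whose knockout arrays all exceeded the wildtype arrays lay between 5 and 14. The 14 (46.7%) stood against 14.7% of all tested genes, a share that was 7.10% with all 7 arrays. In each of these fits 0 genes were lower at an unadjusted p under 0.05, where 3.54% of all tested genes were with all 7 arrays. The count higher at that p lay between 2 and 10. It was 10 without knockout replicate 4 (33.3%, against 8.48% of all tested genes) and 2 without wildtype replicate 2 (6.67%, against 5.71%). It was 3 without wildtype replicate 1 (10%, against 4.74%) or knockout replicate 3 (10%, against 6.29%). It was 4 without knockout replicate 1 (13.3%, against 6.95%) or 2 (13.3%, against 7.12%). Without wildtype replicate 3 it was 6 (20%), and the share over all tested genes was not analysed here. Without wildtype replicates 1 and 2, which left 1 wildtype array assumed to vary like the knockout arrays, the median was 0.030, the count at an unadjusted p was 0, and the wildtype array lay below all knockout arrays for 7 genes and above them for 5, against 19.7% and 16.9% of all tested genes. The count of genes whose knockout arrays all exceeded the wildtype arrays was 12 without wildtype replicate 1 and knockout replicate 4 (40%, against 15.0% of all tested genes). It was 2 when the trend with gene span was taken out (6.67%, against 6.63%). Deviations followed gene span with Spearman's rho from -0.254 in knockout replicate 2 to 0.361 in wildtype replicate 1. That rho is across genes, which are not independent replicates. After repeated quantile normalization 1 of the 30 genes had all wildtype arrays above the knockout arrays (against 4.80% of all tested genes). The causes were not tested.

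These differences changed sign. With array weights Gpnmb was 0.039 and Cox6a2 0.023. Ctsl was -0.0032 after repeated quantile normalization and -0.0034 with the span trend removed. Cox6a2 was 0.025 with arrays centred on their medians and 0.0041 without wildtype replicate 1 and knockout replicate 4. Gpnmb kept its sign at -0.60 without wildtype replicates 1 and 2. Leaving out 1 array gave Itgb2 -0.073 to 0.11, Gpnmb -0.35 to 0.21, Cox6a2 -0.080 to 0.084 and Ctsl -0.0059 to 0.086. Without wildtype replicates 1 and 2, Ctsl was -0.049, Ctsz -0.053, Itgb2 -0.084, Csf2ra -0.079, Timp2 -0.052, Mamdc2 -0.043 and Cybb -0.057. Signal over background limits Cd44, Cd52 and Dkk2, dimmer than the background level in all arrays.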
